A study of Mus musculus with 3 samples.

Results

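The cells described here are C3(1)-Tag mouse mammary tumour cells grown in collagen I and collected on day 3 or day 5. A cell was kept where the deposited annotation gave it collagen as its matrix and Mouse1, Mouse2 or Mouse3 as its animal, where it held at least 5000 unique molecular identifiers (UMIs, each a counted mRNA molecule), and where at least 1 of them was from Epcam, an epithelial surface gene. This left 3343 of the 7620 cells of the study, or 43.87%. Day 3 had 417, 1125 and 763 cells of Mouse1, Mouse2 and Mouse3, and day 5 had 96, 337 and 605. Because Epcam chose the cells, its own level is not a finding.

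In the study, primary tumours of about 20 mm were taken from FVB mice of 25 to 30 weeks that carry the C3(1)-Tag transgene, a viral large T antigen under a prostatic steroid-binding protein promoter that drives mammary carcinoma. Freshly isolated organoids were placed in collagen I, or clusters in Matrigel, in DMEM/F12 with ITS and 2.5 nM FGF2, so every gel-grown group carries the transgene and received FGF2, and the 4T1 cells do neither. The 4T1 line, a mouse mammary carcinoma line kept on plastic with serum, was added to each day's pool. Collagenase at 2 mg/ml released the collagen cultures and cold EDTA the Matrigel ones, and the single cells were tagged by condition, sorted as live and run as 1 pool a day on a droplet 3' kit.

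Collagen I is the main fibrous collagen of tumour stroma, and mammary tumour organoids placed in it extend strands of cells led by cells that carry basal keratins. Matrigel is a laminin-rich basement membrane extract in which the same organoids grow as rounded colonies. Such cultures are followed over days as strands form and lengthen.

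Day 3 and day 5 were each a single pool, so the pool and the day cannot be told apart, and the labels also give each pool its own batch number. The 4T1 cells are the only cells in both pools that were not in a gel, so their change is printed beside many of the results, though not beside every gene. They numbered 192 on day 3 and 19 on day 5, form 1 sum of UMIs a day and allow no test. Collagen cells were deeper on day 5, with median UMIs per cell of 52901 to 59454 against 35534 to 41951, and their median mitochondrial share was 5.36% to 5.9% against 3.76% to 4.38%. In 4T1 cells the same measures moved from 69996 to 142627 UMIs and from 3.85% to 5.42%. As a check of the epithelial label, the 11 epithelial markers other than Epcam, which chose the cells, summed to 4527, 4232 and 5048 CPM on day 3 and 2632, 3634 and 2741 CPM on day 5. The part of depth and mitochondrial share in the results was not tested beyond the settings given in the closing section. Between the days 4 cell barcodes were shared, 2 of them in the cells described here. Of the 3343 cells 12 lay among 4T1 cells by expression. Cells with at least 3 UMIs summed over immune markers numbered 3, 20 and 4 on day 3 and 0, 6 and 7 on day 5 in Mouse1, Mouse2 and Mouse3.

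UMIs were summed per mouse and day and compared within mice, as CPM (counts scaled to equal library totals) with TMM scaling, in an edgeR quasi-likelihood fit with Benjamini-Hochberg adjustment over 12276 genes. A gene is called where its adjusted p was under 0.05. The 3 mice are the replicates (n = 3 pairs), and the sums held 5625023 to 46142333 UMIs. Of the genes tested, 453 were called higher on day 5 (3.69%) and 589 lower (4.8%), together 1042 (8.49%). By the same edgeR fit 3352 of the 12276 had an unadjusted p under 0.05. List counts at an unadjusted p are to be read against that number. In sums, more cells of a state and more RNA per cell cannot be told apart. Every one of the 1042 moved the same way in all 3 mice. The call itself favours this, since the test was made within the same 3 mice, so it is no separate support. Of all genes tested 53.8% had a positive change. Most changes were small, since 92 higher and 60 lower genes reached 2-fold. The values of the 2 days did not overlap for 928 of the called genes, against 27.6% of all genes tested. The count rests on all 3 mice: without Mouse1, Mouse2 or Mouse3 it was 34, 479 or 70, and without the pairing it was 166.

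The 4T1 cells of the same pools were read for the same genes. Their change is the log2 ratio of CPM with 5 added, which shrinks the changes of genes at low CPM, while the fit in collagen has no such term. So for genes under about 20 CPM the 2 kinds of value are not on 1 scale, and a 4T1 value in brackets beside such a gene is not a measure of how far the 2 kinds of cell differ. Of the 453 genes called higher, 238 had at least 20 CPM in 4T1 cells, and in 167 of these (70.17%) the 4T1 change had the same sign and was at least 0.5 times as large. Of the 589 called lower, 456 had that level and 313 (68.64%) moved likewise. The same shares over all genes at that level were 52.5% of the 2318 with a positive collagen change and 61.6% of the 2849 with a negative one. The others at that level were 39 higher and 59 lower genes with a smaller 4T1 change of the same sign, and 32 higher and 84 lower genes with a 4T1 change of the opposite sign. Across the 694 called genes at that level the changes in collagen and in 4T1 cells correlated with r = 0.689, and across all 5167 genes at that level with r = 0.41. Genes are not independent replicates and the 2 sets share their pools, so r is a description. In 4T1 cells 19.3% of the called higher genes at that level were 2-fold or more higher, against 4.97% of all 5167, and 10.5% of the called lower genes were 2-fold or more lower, against 4.12%.

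**Figure D1:**
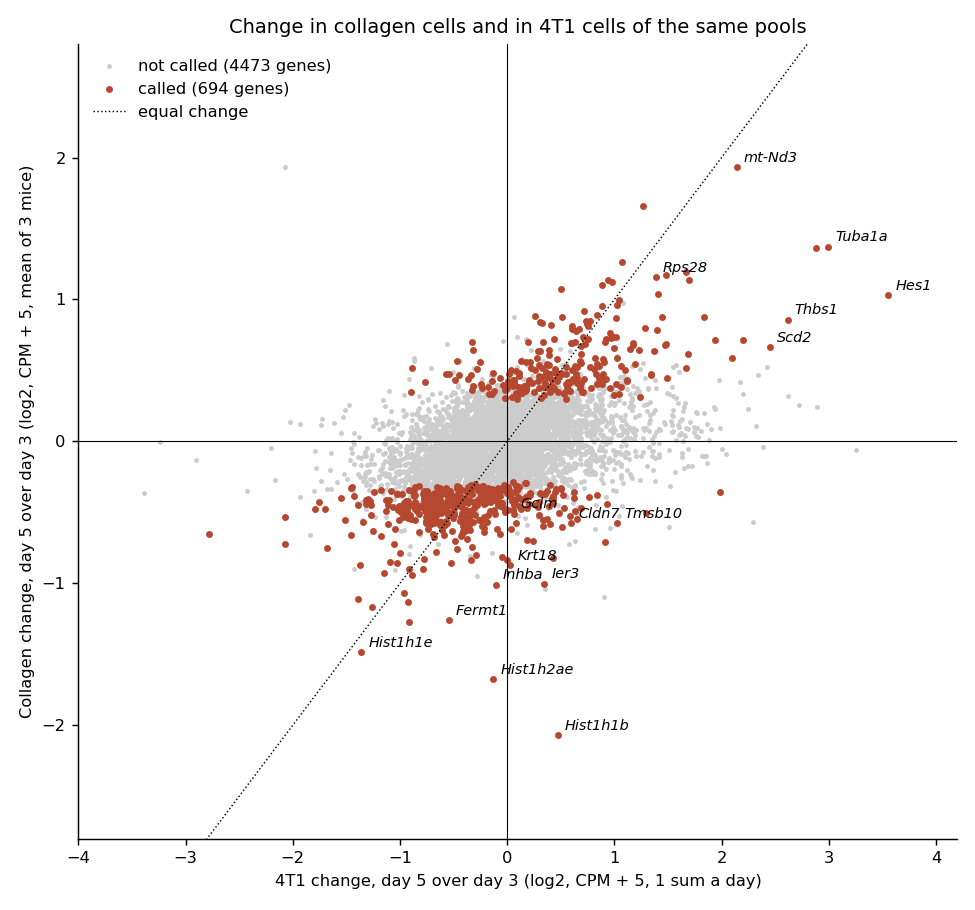
Change from day 3 to day 5 in collagen cells (vertical axis, log2, mean of 3 mice) against the change in 4T1 cells of the same pools (horizontal axis, log2, 1 sum a day) for 5167 genes, with the 694 called genes in red and a dotted line of equal change. Most called genes lie in the quadrants of equal sign, while Hist1h1b, Hist1h2ae, Krt18, Inhba and Ier3 lie near or across the vertical zero line.

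Genes for parts of the ribosome and of the mitochondrion, chosen here after their values were seen, moved in both kinds of cell. mt-Nd3, a subunit of respiratory complex I encoded in the mitochondrial genome, stood at 147, 169.7 and 134 CPM on day 3 and 569.8, 618 and 564 CPM on day 5 in Mouse1, Mouse2 and Mouse3. Its log2 fold change was 1.96 (SE 0.10, adjusted p = 3.5e-05 by edgeR), beside 2.14 in 4T1 cells, which went from 126 to 574 CPM (95% counting interval 546 to 602 on day 5). Its neighbour mt-Nd4l fell by 1.28 on the log2 scale in collagen and moved by -0.91 in 4T1 cells. Rps28, a protein of the small ribosomal subunit, rose by 1.17 (4T1 1.38). These 3 genes moved in both cell kinds by similar amounts. Over the families, 9 of 98 ribosomal protein genes were called higher and 29 lower (median -0.29, and -0.53 in 4T1 cells for the 88 at 20 CPM or more), and 4 of 13 mitochondrial genes higher and 3 lower (medians 0.26 and 0.40), against 3.69% and 4.8% of all genes. Of the ribosomal protein genes 15 were lower by limma and 48 by DESeq2, and 5 were higher with cells thinned. With library totals alone 9 mitochondrial genes were higher.

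Among called genes at a mean of 20 CPM or more the largest rises were in Cdk2ap1 and Trf. Cdk2ap1, whose protein binds and restrains the cell cycle kinase CDK2 (chr5:124345417-124363082), stood at 13.8, 15 and 14 CPM on day 3 and 87.2, 95.8 and 96 CPM on day 5 in Mouse1, Mouse2 and Mouse3. All 3 mice started at nearly the same level and ended at nearly the same level, and the days did not overlap (log2 fold change 2.71, SE 0.11, adjusted p = 7.67e-06). In 4T1 cells it went from 4.97 to 26.6 CPM. With 5 CPM added in both, the change was 1.66 in 4T1 cells and 2.35 in collagen cells. The lower level on day 3 in 4T1 cells means that their change is shrunk more, so these 2 values do not measure a difference. Trf encodes transferrin, the iron carrier that mammary epithelium also secretes (chr9:103204001-103230444). It stood at 23.1, 10.8 and 18 CPM on day 3 and 141, 54.8 and 188 CPM on day 5 in Mouse1, Mouse2 and Mouse3, highest in Mouse3 and lowest in Mouse2 on day 5, with no overlap between days (log2 fold change 2.7, SE 0.47, adjusted p = 0.0124). In 4T1 cells Trf stayed at 0.855 and 0.709 CPM (95% counting interval 0.0859 to 2.56 on day 5), so it was all but missing there on both days.

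Ackr3, an atypical chemokine receptor that takes up CXCL12 (chr1:90203980-90216751), stood at 19.7, 13.1 and 30.9 CPM on day 3 and 69.8, 42.7 and 89.9 CPM on day 5 in Mouse1, Mouse2 and Mouse3 and rose by 1.68 (SE 0.24, adjusted p = 0.0063). Each mouse kept its rank and the days did not overlap, and in 4T1 cells the gene was low, at 3.65 and 12.1 CPM. Nck2, an adaptor that links receptor tyrosine kinases to actin, rose by 1.48 with 10.8 to 12.8 CPM on day 3 and 28.3 to 39 CPM on day 5 over the mice, and 4T1 cells had 4.82 and 9.93 CPM. Cav2, a caveolin of membrane invaginations, rose by 1.19 (SE 0.15), and 4T1 cells had 24 and 36.2 CPM. With 5 CPM added in both kinds of cell, the changes in collagen and in 4T1 cells were 1.47 and 0.98 for Ackr3, 1.16 and 0.60 for Nck2 and 1.07 and 0.50 for Cav2. Since Ackr3 and Nck2 were at low CPM in 4T1 cells, their 4T1 values are shrunk the most.

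For the genes named next the 4T1 change was 0.80 (Myadm) to 2.18 (Tuba1a) times the collagen change, both with 5 CPM added. S100a4, a calcium-binding protein often used as a mesenchymal marker, rose by 1.52 in collagen cells while 4T1 cells went from 60.4 to 478 CPM (2.88 on the log2 scale). Tuba1a, an alpha-tubulin, rose by 1.42 (4T1 2.99), and its near-identical relative Tuba1c by 1.18 (4T1 1.70); reads of the 2 may have been split or dropped in counting. Jdp2, a leucine-zipper repressor, rose by 1.23 (4T1 1.02), Etfb, an electron carrier of fat oxidation, by 1.29 (4T1 0.98), Myadm, a membrane raft protein, by 1.3 (4T1 0.88) and Hypk, a chaperone-like partner of N-terminal acetylation whose gene overlaps Serf2, by 1.46 (4T1 1.07).

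Among called genes at a mean of 20 CPM or more, predicted genes left out, the largest falls were in Hist1h1b, described with the histone genes, Fxyd2 and Il11. Il11 encodes interleukin-11, a cytokine of the IL-6 family (chr7:4772373-4782859), and stood at 144, 67.8 and 41.1 CPM on day 3 and 37.1, 12.6 and 21.6 CPM on day 5 in Mouse1, Mouse2 and Mouse3. It was highest in Mouse1 on both days, fell in each mouse, did not overlap between days and fell by 1.78 on the log2 scale (SE 0.30, adjusted p = 0.012). In 4T1 cells it had 1.4 and 0.709 CPM. Fxyd2, a regulator of the sodium pump, stood at 22.2 to 46.2 CPM on day 3 and 7.03 to 12.5 CPM on day 5 over the mice and fell by 1.80, with fewer than 10 UMIs over both 4T1 sums. Prl2c2, a placental lactogen-family gene with close copies in the genome and so uncertain, stood at 14.2, 54.6 and 25.9 CPM on day 3 and 1.54, 21.3 and 9.67 CPM on day 5 in Mouse1, Mouse2 and Mouse3 and fell by 1.70. Its days overlapped because Mouse2 on day 5 was above Mouse1 on day 3.

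Aldh1a3, which makes retinoic acid and marks luminal progenitors (chr7:66390890-66427517), stood at 107, 178 and 149 CPM on day 3 and 28.8, 117 and 44.7 CPM on day 5 in Mouse1, Mouse2 and Mouse3. Mouse1 and Mouse3 fell more than Mouse2, whose day 5 value was above the lowest day 3 value (log2 fold change -1.38, SE 0.22, adjusted p = 0.00955). 4T1 cells held 0 UMIs of it on day 5, with an upper limit of 1.31 CPM (95% counting interval). Mal, a raft protein of apical transport, stood at 99.4, 91.1 and 292 CPM on day 3 and 21.3, 65 and 89.1 CPM on day 5 in Mouse1, Mouse2 and Mouse3 and fell by 1.48 (SE 0.35, adjusted p = 0.0342). Fermt1, kindlin-1 of epithelial integrin adhesion, fell by 1.33 with 96.3 to 153 CPM on day 3 and 37.2 to 59.3 CPM on day 5 (4T1 -0.55). Mal and Aldh1a3 had no more than 2.84 CPM in 4T1 cells on day 5, so the pool offers no reference for them.

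**Figure D2:**
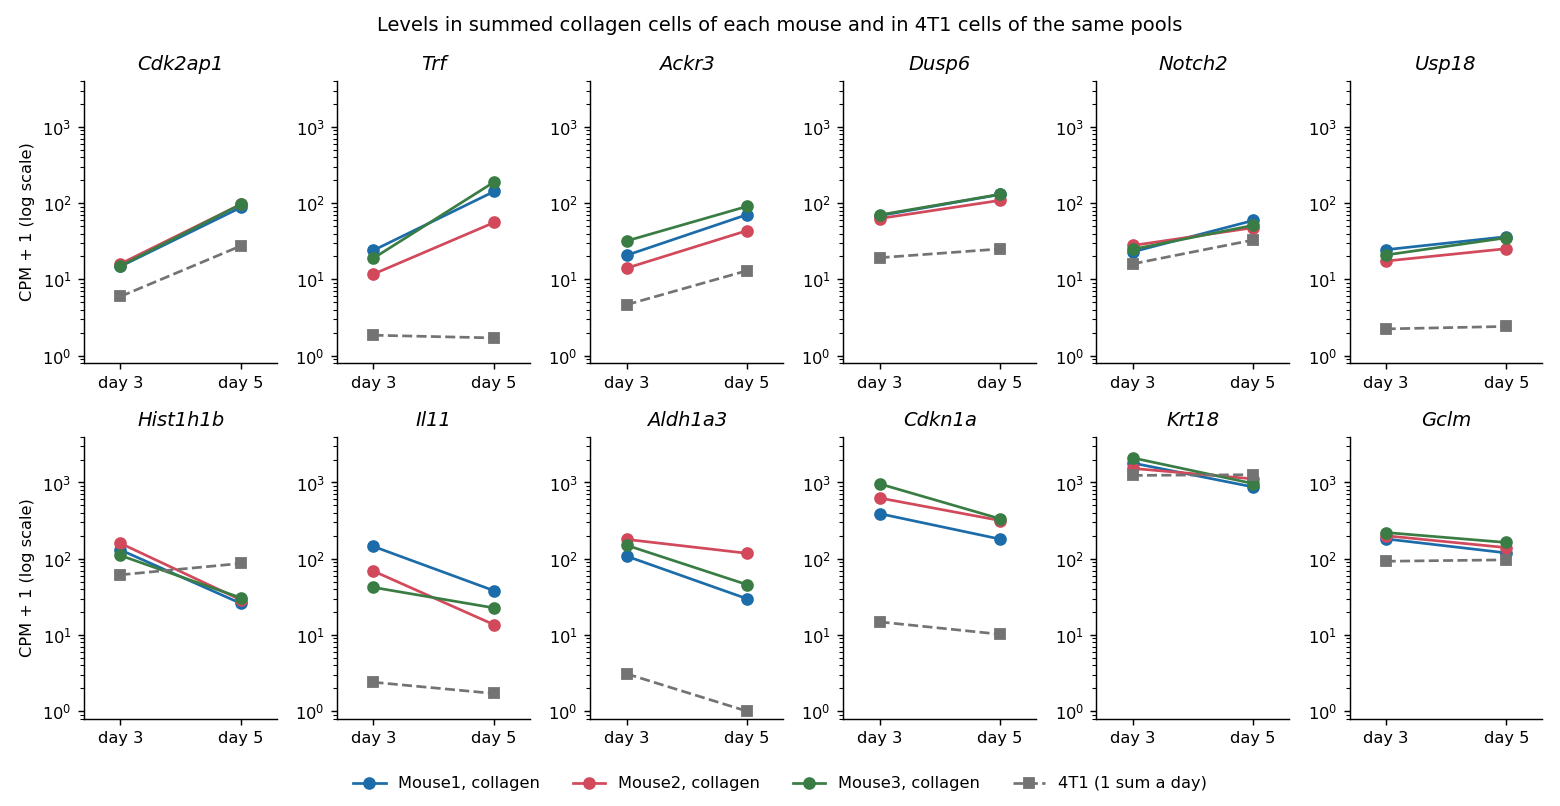
CPM plus 1 on a log axis on day 3 and day 5 for 12 genes, with 1 coloured line per mouse and a dashed grey line for the 4T1 sum of each day. The collagen lines of Cdk2ap1, Trf and Ackr3 climb in all 3 mice, those of Hist1h1b, Il11, Aldh1a3, Cdkn1a, Krt18 and Gclm descend, and the 4T1 line of Hist1h1b, Krt18 and Gclm does not descend with them.

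Of 27 genes of hypoxia and glycolysis 7 were called higher and 0 lower, against 3.69% of all genes called higher. Of the 27, 25 had a positive change, and the median was 0.50 against 0.03 for all genes. Most are known targets of HIF1, a transcription factor that builds up when oxygen is short and that binds sites holding the letters ACGTG, and the list was made from genes known to respond in that way. The promoters of the called genes are shown because the genes moved together. The window searched was the 250 bases before the RefSeq transcription start on GRCm38.p6, on both strands, so that ACGTG and its complement CACGT both count and a CACGTG counts for each. It held the letters in 6 of the 7 called genes (85.7%), in 13 of the 26 list genes with a promoter entry (50.0%) and in 2084 of the 9518 tested genes with one (21.9%). Among all genes called higher the share was 22.4% and among all called lower 21.9%. Part of each window follows, 5′ to 3′ on the gene's strand, with the match in capitals. The windows are Hk2 at chr6:82774477-82774531 (minus strand), Pgk1 at chrX:106186944-106186998 (plus), Ldha at chr7:46845745-46845799 (plus), Bnip3 at chr7:138909584-138909638 (minus), P4ha1 at chr10:59323255-59323295 (plus) and Car9 at chr4:43506983-43507025 (plus).
Hk2: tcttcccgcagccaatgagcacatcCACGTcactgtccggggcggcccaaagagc
Pgk1: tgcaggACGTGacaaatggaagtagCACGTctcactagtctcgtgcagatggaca
Ldha: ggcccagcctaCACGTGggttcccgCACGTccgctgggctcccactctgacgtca
Bnip3: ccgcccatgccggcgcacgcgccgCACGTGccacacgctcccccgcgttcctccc
P4ha1: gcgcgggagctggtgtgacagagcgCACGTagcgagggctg
Car9: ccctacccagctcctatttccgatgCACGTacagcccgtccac
The seventh called gene, Pdk1, had no match in its window, which says nothing of sites elsewhere.

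Bnip3, which targets mitochondria for degradation, stood at 17.8, 7.64 and 11.3 CPM on day 3 and 64.7, 17.8 and 28.9 CPM on day 5 in Mouse1, Mouse2 and Mouse3. Mouse1 was highest on both days, its day 3 value was level with that of Mouse2 on day 5, and the rise was 1.48 (SE 0.21, adjusted p = 0.0063). Pdk1, a kinase that keeps pyruvate from the mitochondrion, stood at 6.9, 3.02 and 3.79 CPM on day 3 and 24.4, 5.78 and 11.2 CPM on day 5 in Mouse1, Mouse2 and Mouse3 and rose by 1.46 (SE 0.22, adjusted p = 0.00745). Car9, a carbonic anhydrase of the cell surface, stood at 3.7, 1.9 and 1.71 CPM on day 3 and 11.3, 3.73 and 3.12 CPM on day 5 in Mouse1, Mouse2 and Mouse3 and rose by 1.15 (SE 0.25, adjusted p = 0.0255), again highest in Mouse1. P4ha1, the collagen prolyl hydroxylase subunit, rose by 0.59 (SE 0.12). Of the enzymes of glycolysis, which were outside the rule for named genes, Hk2 rose by 1.28, Pgk1 by 0.74 and Ldha by 0.64. The 4T1 changes of these genes were 1.48 for Bnip3, 1.25 for Pdk1, 1.00 for Car9, 1.09 for P4ha1, 0.41 for Hk2, 0.92 for Pgk1 and 1.23 for Ldha. Over the 16 list genes at 20 CPM or more in 4T1 cells the 4T1 median was 0.91, against 0.38 for the same genes in collagen. By these medians the 4T1 cells, grown on plastic, moved further than the collagen cells of the same pools. With cells scaled by DESeq2 size factors 5 members were called, with library totals alone 11 and by limma 3.

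Of 27 nuclear genes of oxidative phosphorylation 11 were called lower and 0 higher, against 4.8% of all genes called lower, with a median of -0.24. Ndufb7, a complex I subunit, stood at 369, 361 and 410.3 CPM on day 3 and 262, 234 and 267 CPM on day 5 in Mouse1, Mouse2 and Mouse3 and fell by 0.58 (SE 0.08, adjusted p = 0.00676), with no overlap between days. Ndufa4, a subunit of cytochrome c oxidase, fell by 0.49 (SE 0.09, adjusted p = 0.0133), Cox7a2 by 0.48 and Cox6c by 0.43, both of the same enzyme. Their 4T1 values were of either sign: -0.32 for Ndufb7, 0.63 for Ndufa4, 0.13 for Cox7a2 and 0.29 for Cox6c. Over all 27 the 4T1 median was -0.07 against -0.23 in collagen. The count depends on scaling, as 6 members were called lower with library totals alone 3 by limma and 5 with cells thinned.

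Of 18 genes of the NRF2 antioxidant response, which includes iron storage, 4 were called lower and 0 higher, against 4.8% of all genes called lower, with a median of -0.27. By limma 2 were called lower, and likewise with cells thinned. Gclm, the modifier subunit of the glutathione-making ligase (chr3:122245557-122270732), stood at 181, 199 and 219.7 CPM on day 3 and 118, 139 and 162 CPM on day 5 in Mouse1, Mouse2 and Mouse3 and fell by 0.52 (SE 0.08, adjusted p = 0.00683). Every mouse was lower on day 5 and the days did not overlap, while 4T1 cells had 91.7 and 95.7 CPM. Gpx2, an epithelial glutathione peroxidase, stood at 70.8, 134 and 143 CPM on day 3 and 23.2, 34.3 and 82.1 CPM on day 5 in Mouse1, Mouse2 and Mouse3 and fell by 1.42 (SE 0.22, adjusted p = 0.00838). Fth1, the ferritin heavy chain, fell by 0.62 (4T1 -0.35), and Txn1, thioredoxin, by 0.38, whereas 4T1 cells moved by 0.84 for the latter. Thus Gclm and Txn1 were lower in collagen cells without being lower in 4T1 cells.

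Epithelial markers had calls in 1 direction and junction genes in both. Krt18, Cldn3 and Cldn7 were called lower among the 11 epithelial markers other than Epcam, against 4.8% of all genes. Krt18, a keratin of simple epithelium (chr15:102028180-102032027), stood at 1799, 1529 and 2103 CPM on day 3 and 872, 1115 and 966 CPM on day 5 in Mouse1, Mouse2 and Mouse3. All mice ended near the same level, with no overlap between days (log2 fold change -0.87, SE 0.13, adjusted p = 0.00797). In 4T1 cells Krt18 had 1238 and 1264 CPM (95% counting interval 1223 to 1306 on day 5). Krt8, its partner keratin, was not called at -0.44 (SE 0.18, adjusted p = 0.153), and it moved by 1.07 in 4T1 cells.

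Cldn3, a tight junction claudin, stood at 252 to 306 CPM on day 3 and 142 to 163 CPM on day 5 and fell by 0.87 (SE 0.14, adjusted p = 0.0104, 4T1 -0.33). Cldn7 fell by 0.58 with overlapping days, and moved by 0.60 in 4T1 cells. Crb3, a protein of the apical polarity complex, fell by 1.19 with 48.7 to 100.4 CPM on day 3 and 20.4 to 45.2 CPM on day 5 (4T1 -0.94). Ctnnb1, beta-catenin, was the 1 junction gene called higher, at 0.44 (4T1 1.12), so 3 of 20 junction genes were lower and 1 higher. Cdh1, E-cadherin, was not called, at 38.2, 43.2 and 37.4 CPM on day 3 and 39.5, 55.5 and 37.2 CPM on day 5 in Mouse1, Mouse2 and Mouse3 (log2 fold change 0.15, SE 0.13, adjusted p = 0.501). Ovol2, a repressor that holds cells in the epithelial state, was low in CPM and fell by 0.86 (SE 0.15, adjusted p = 0.0125), the 1 called of 12 such gatekeepers.

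Genes of squamous differentiation had 2 of 13 called lower. For this and the next lists, 4.8% of all genes were called lower and 3.69% higher. Sprr1b, a precursor of the cornified envelope, stood at 7.79, 15.7 and 4.17 CPM on day 3 and 2.57, 2.47 and 1.01 CPM on day 5 in Mouse1, Mouse2 and Mouse3 and fell by 2.17 (SE 0.45, adjusted p = 0.0222). Lypd3, a surface protein of stratified epithelium, fell by 0.71 and was at 3.11 and 5.32 CPM in 4T1 cells. Of 10 S100 genes 2 were lower and 1 higher: S100a14 fell by 1.23 with 169.7 to 311 CPM on day 3 and 57.6 to 131 CPM on day 5, S100a6 fell by 0.57 (4T1 0.08), and S100a4 rose as given above. Of 14 luminal genes 2 were called lower, Krt18 and Aldh1a3, and 1 higher, Kit, the progenitor receptor (rise of 1.38 with 1.27 to 2.86 CPM on day 3 and 4.48 to 5.49 CPM on day 5). Of 15 basal keratin and myoepithelial genes 0 were called by edgeR (3 at an unadjusted p under 0.05, against 3352 of all 12276) and 0 by DESeq2. With cells thinned 1 of the 12 tested was called higher, against 300 of all 8620. In that setting 4 of the 12 had an unadjusted p under 0.05 by edgeR, against 1953 of the 8620. Krt14, the basal keratin of invading strands, stood at 1267, 1706 and 1272 CPM on day 3 and 1013, 2814 and 1191 CPM on day 5 in Mouse1, Mouse2 and Mouse3, higher on day 5 in Mouse2 and lower in the others (log2 fold change 0.18, SE 0.36, adjusted p = 0.785). Krt5 was 1.10 (SE 0.70, adjusted p = 0.349) and Trp63, the basal master regulator, 0.40 (adjusted p = 0.526), and neither was called.

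Of 17 mesenchymal genes 13 had a positive change and 2 were called higher, S100a4 and Snai1, with a median of 0.49. Over all genes 53.8% had a positive change and 3.69% were called higher. The 7 at 20 CPM or more in 4T1 cells had a median of 0.14 there and of 0.35 in collagen. Snai1, a repressor of E-cadherin, stood at 12.7, 7.56 and 10.2 CPM on day 3 and 26.8, 13.7 and 30.1 CPM on day 5 in Mouse1, Mouse2 and Mouse3 and rose by 1.19 (SE 0.31, adjusted p = 0.0466), with no overlap between days and the smallest step in Mouse2. In 4T1 cells Snai1 had 3.73 and 8.15 CPM. With 5 CPM added its changes were 0.59 in 4T1 cells and 0.88 in collagen. At such low CPM the 4T1 change is shrunk more, so these 2 values do not measure a difference. Vim, the intermediate filament of mesenchymal cells, stood at 1165, 618 and 229.5 CPM on day 3 and 1669, 888 and 700.4 CPM on day 5 in Mouse1, Mouse2 and Mouse3 and was higher on day 5 in every mouse. The mice differed widely on each day and it was not called (log2 fold change 0.81, SE 0.35, adjusted p = 0.169, 4T1 0.07). Fn1, fibronectin, was also not called at 0.61 (SE 0.33, adjusted p = 0.266), and neither were Snai2 at 0.65 (adjusted p = 0.543) and Twist1 at -0.32 (adjusted p = 0.461).

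The share of cells with a Vim UMI was taken after each cell was thinned to 5000 UMIs, since deeper cells show more genes. It was 60.19%, 40.53% and 20.58% on day 3 and 79.17%, 51.93% and 52.89% on day 5 in Mouse1, Mouse2 and Mouse3. The mean step was 20.9 points (SD 10.6, n = 3), upward in 3 of 3 mice and largest in Mouse3, with an exact two-sided paired permutation p of 0.25, the smallest that 3 pairs can give. Cells with both Vim and Krt14 went from 27.7% ± 15.6 (SD, n = 3) to 44.4% ± 12.4, a step of 16.7 points in the same direction in 3 of 3 mice (exact permutation p = 0.25). Krt14 alone was in 76.2% ± 3.50 and 79.0% ± 4.00 (SD, n = 3) of cells (exact permutation p = 1). Krt8 went from 87.2% ± 5.65 to 78.1% ± 4.75 (SD, n = 3), a step of -9.09 points in 3 of 3 mice (exact permutation p = 0.25). Fn1 went from 60.1% ± 2.60 to 67.9% ± 7.19 (SD, n = 3), a step of 7.84 points, upward in 3 of 3 mice (exact permutation p = 0.25).

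Without thinning the Vim step was 22.1 points and the Krt8 step 0.536 points, so the second depends on depth. As a background, a Krt14 UMI was found in 1 of 16 macrophage-like cells of day 3 (6.25%, exact interval 0.158% to 30.2%), whose median depth before thinning was 17717 UMIs. In 4T1 cells the share with Krt14 was 18.2% on day 3 and 52.6% on day 5, with Krt14 at 35.9 and 132 CPM, and their Vim share was 92.7% and 79.0%. Cells with at least 3 UMIs summed over stromal markers numbered 23, 60 and 7 on day 3 and 9, 20 and 44 on day 5, and without them the Vim change was 0.84 by the fit. Their part in the shares was not tested. Mki67, a proliferation antigen, was in 31.2% and 31.7% of cells and Top2a, the mitotic topoisomerase, in 43.5% and 41.2% (exact permutation p = 0.75 and 0.5, n = 3).

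**Figure D3:**
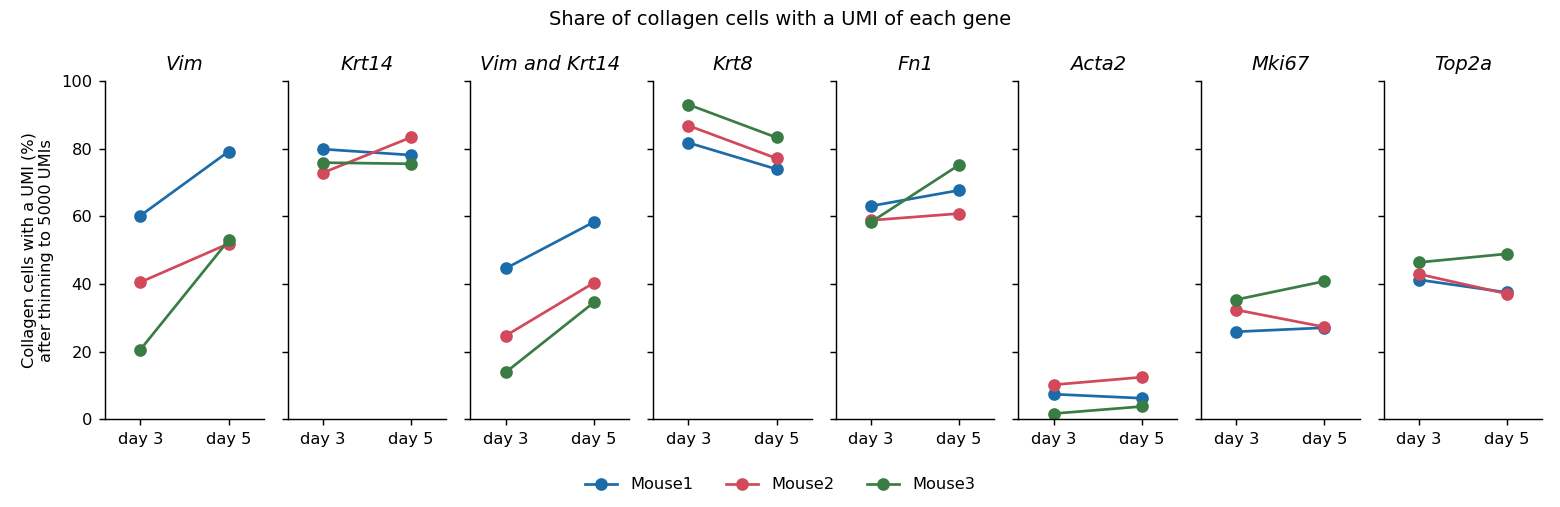
Share of collagen cells with at least 1 UMI of each gene after thinning to 5000 UMIs (vertical axis, %), on day 3 and day 5, 1 line per mouse. The lines of Vim, of Fn1 and of Vim with Krt14 go up and those of Krt8 go down in all 3 mice, while Krt14, Acta2, Mki67 and Top2a have lines of both directions.

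The matrix and protease genes called by edgeR were all higher on day 5. Among 24 interstitial collagen and matricellular genes 3 were called higher and 0 lower, against 3.69% of all genes called higher and 4.8% lower. Thbs1, thrombospondin-1, stood at 34.6, 47.1 and 51.9 CPM on day 3 and 78.2, 110.4 and 67.5 CPM on day 5 in Mouse1, Mouse2 and Mouse3 and rose by 0.92 (SE 0.17, adjusted p = 0.0135), least in Mouse3, and 4T1 cells moved by 2.62. Col16a1, a collagen that sits on fibril surfaces, rose by 0.83 with 12.9 to 17.8 CPM on day 3 and 18.8 to 38.2 CPM on day 5 (4T1 0.28). Lox, the enzyme that cross-links collagen, stood at 3.92, 0.842 and 0.223 CPM on day 3 and 15.8, 2.52 and 0.953 CPM on day 5 in Mouse1, Mouse2 and Mouse3, with most of its UMIs in Mouse1, and rose by 1.83 (SE 0.41, adjusted p = 0.0288). Its 4T1 sums held fewer than 10 UMIs.

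Of 24 proteases and inhibitors 2 were called higher, against 3.69% of all genes. Adam9 rose by 1.02 (SE 0.13, 4T1 0.67) and Adam12, which like it cleaves cell surface proteins, stood at 10.3, 7.95 and 6.7 CPM on day 3 and 17.5, 16.3 and 14.9 CPM on day 5 in Mouse1, Mouse2 and Mouse3 and rose by 0.99 (SE 0.25, adjusted p = 0.0448), while 4T1 cells had 6.45 and 5.67 CPM. Col4a5, a basement membrane collagen chain, rose by 0.65 (4T1 at 5.67 and 5.67 CPM), the 1 called of 16 basement membrane genes. None of 18 matrix receptors was called by edgeR (4 at an unadjusted p under 0.05, against 3352 of all 12276), and DESeq2 called 1 higher and 1 lower. Itgb1, the shared beta subunit of collagen-binding integrins, stood at 595, 559.8 and 473 CPM on day 3 and 444, 437 and 369.5 CPM on day 5 in Mouse1, Mouse2 and Mouse3, which did not overlap between days but missed the threshold (log2 fold change -0.38, SE 0.13, adjusted p = 0.098; unadjusted p = 0.0155).

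Targets of YAP, a co-activator driven by cell tension, rose in 4 of 15, with 0 lower and 12 positive, against 3.69% of all genes called higher and 53.8% positive. Cyr61, a secreted matricellular protein (chr3:145646976-145649981), stood at 78, 73.2 and 36.3 CPM on day 3 and 177, 178 and 91.4 CPM on day 5 in Mouse1, Mouse2 and Mouse3 and rose by 1.26 (SE 0.24, adjusted p = 0.0177). Mouse3 was lowest on both days and its day 5 value was above every day 3 value. Ctgf rose by 1.03 (SE 0.26, adjusted p = 0.0431), Axl, a receptor tyrosine kinase, by 0.74 and Amotl2, an angiomotin that holds YAP back, by 0.72. In 4T1 cells these 4 moved by 1.67, 1.84, 0.63 and 0.28. Of 24 genes of actin and contractility 4 were called higher, among them Myl12a (0.43, 4T1 0.47), Actn4 (0.49, 4T1 0.89) and Actn1 (0.45, 4T1 0.92), and 1 lower. That one was Tmsb10, a thymosin that binds free actin, at 4529, 3436 and 4466 CPM on day 3 and 3064, 2372 and 2885 CPM on day 5 in Mouse1, Mouse2 and Mouse3, which fell by 0.58 (SE 0.09, adjusted p = 0.00828) while 4T1 cells moved by 1.02.

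FGF2 was in the medium on both days, and genes of FGF receptor and ERK feedback split. Of 16 tested, 2 were called higher and 2 lower, against 3.69% and 4.8% of all genes. Dusp6, an ERK phosphatase and a direct FGF response gene (chr10:99263231-99267489), stood at 67.6, 61.9 and 69.2 CPM on day 3 and 129, 108 and 129.9 CPM on day 5 in Mouse1, Mouse2 and Mouse3. It rose by similar amounts in each mouse (log2 fold change 0.88, SE 0.14, adjusted p = 0.00859), beside 0.32 in 4T1 cells. The part of FGF2 in this rise was not tested. Etv5, an ETS factor induced by FGF, rose by 0.66 (SE 0.17, adjusted p = 0.0475, 4T1 0.21). Ier3, an immediate early survival gene, stood at 1282, 1186 and 2302 CPM on day 3 and 697, 634 and 973 CPM on day 5 in Mouse1, Mouse2 and Mouse3 and fell by 1.00 (SE 0.20, adjusted p = 0.0195), while 4T1 cells moved by 0.35. Dusp4, another ERK phosphatase, fell by 0.58 (4T1 -0.42).

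Other signalling lists held 1 to 4 called genes each, against 3.69% of all genes called higher and 4.8% lower. Of 17 TGF-beta targets 3 were higher, Bhlhe40 at 1.19 (4T1 1.41), Id2 at 0.82 (4T1 0.81) and Smad6, an inhibitory SMAD, at 1.3. The 1 that was lower, Inhba, encodes the activin A subunit and stood at 528, 659.5 and 939.7 CPM on day 3 and 300.1, 304 and 430.5 CPM on day 5 in Mouse1, Mouse2 and Mouse3. It fell by 1.01 (SE 0.27, adjusted p = 0.048), with no overlap between days, and had 34.8 and 31.9 CPM in 4T1 cells. Of 11 Notch genes 2 were higher, the receptor Notch2 at 22, 26.9 and 23.8 CPM on day 3 and 58.3, 46.7 and 50.3 CPM on day 5 in Mouse1, Mouse2 and Mouse3, a rise of 1.08 (SE 0.15, adjusted p = 0.00579, 4T1 0.88), and the target Hes1 with a rise of 1.12 (SE 0.21). Hes1 went from 25.6 to 355 CPM in 4T1 cells, a change of 3.55.

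Of 17 Wnt genes, the receptor Lgr4 was called higher at 0.92 (SE 0.17, adjusted p = 0.0158), with 4.9 and 4.61 CPM in 4T1 cells. The ligand Wnt10a, at 83.5, 275 and 215 CPM on day 3 and 33.6, 184 and 121 CPM on day 5 in Mouse1, Mouse2 and Mouse3, fell by 0.91 (SE 0.21, adjusted p = 0.0285), with overlapping days because Mouse1 was low throughout. Of 11 EGF ligands and receptors, the ligand Btc fell by 0.64 (SE 0.16, adjusted p = 0.0382). The mammary stem and progenitor list had 1 of 13 called higher, the Polycomb gene Bmi1 at 0.51 (4T1 0.21), and 2 lower, Aldh1a3 and Sox4, a progenitor factor that fell by 0.52 (4T1 -0.30).

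The p53 target Cdkn1a, which encodes the CDK inhibitor p21 (chr17:29090976-29100727), stood at 389, 626 and 959 CPM on day 3 and 179.8, 316 and 333 CPM on day 5 in Mouse1, Mouse2 and Mouse3. It was highest in Mouse3 and lowest in Mouse1 on both days, with each mouse lower on day 5 and no overlap (log2 fold change -1.24, SE 0.25, adjusted p = 0.0186). In 4T1 cells it had 13.8 and 9.22 CPM. Phlda3, an AKT repressor that p53 induces, fell by 0.61 (SE 0.16, adjusted p = 0.0493, 4T1 -0.35). They were the 2 called of 18 p53 targets, and 0 were higher, against 4.8% of all genes called lower. Large T antigen binds p53, and all cells of Mouse1 to Mouse3 carry it.

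Cell cycle lists had almost no calls, whereas 13 of 39 replication histone genes were called lower, against 4.8% of all genes. By limma on mean CPM per cell 5 of the 39 were called lower, with a median of -0.23, and with cells thinned 8 of 17 tested. None of 22 mitosis genes was called by edgeR (1 at an unadjusted p under 0.05, 1 called higher by DESeq2, median 0.06), and 1 of 24 S phase genes was, Ccne2, cyclin E2, with a rise of 1.03 (SE 0.15, adjusted p = 0.00662). In 4T1 cells the same lists had medians of 0.86 and 1.62. Mki67 stood at 98.5, 128 and 154 CPM on day 3 and 87.5, 91.1 and 157 CPM on day 5 in Mouse1, Mouse2 and Mouse3 (log2 fold change -0.23, SE 0.20, adjusted p = 0.508), with 4T1 cells at 63 and 169.8 CPM. Histone genes of the replication clusters, whose mRNAs mostly lack the poly(A) tail that the kit primes on, also had 1 called higher, Hist3h2a (rise of 1.62), and a median of -0.81; this family and Hist3h2a were chosen after their values were seen.

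Hist1h1b, linker histone H1.5 (chr13:21779883-21780625), stood at 129.5, 158 and 109.5 CPM on day 3 and 24.9, 27.8 and 29.6 CPM on day 5 in Mouse1, Mouse2 and Mouse3. The 3 mice lay close together on each day and the days were far apart (log2 fold change -2.30, SE 0.37, adjusted p = 0.00993), while 4T1 cells had 60.6 and 85.8 CPM (95% counting interval 75.3 to 97.3 on day 5). Hist1h2ae, a core histone H2A, stood at 358, 347 and 272 CPM on day 3 and 68.5, 107 and 127 CPM on day 5 in Mouse1, Mouse2 and Mouse3 and fell by 1.69 (SE 0.37, adjusted p = 0.0267, 4T1 -0.13). Hist1h1e, another linker histone, fell by 1.67, with a 4T1 change of -1.36. For the 5 histone genes at 20 CPM or more in 4T1 cells the median was -1.49 in collagen and -0.13 in 4T1 cells. Histone genes are near copies of each other and some overlap neighbours, so single members are uncertain.

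Of 14 fatty acid synthesis genes 4 were called higher and 0 lower, and all 14 had a positive change, with a median of 0.24, against 3.69% of all genes called higher and 53.8% positive. Srebf1, the transcription factor of the pathway, stood at 45.1, 35.6 and 36.3 CPM on day 3 and 66.4, 58.4 and 70.7 CPM on day 5 in Mouse1, Mouse2 and Mouse3 and rose by 0.75 (SE 0.13, adjusted p = 0.0125, 4T1 1.53). Scd2, a desaturase, rose by 0.67 (4T1 2.45), Elovl5, an elongase, by 0.74 (4T1 0.56) and Acly, which makes cytosolic acetyl-CoA, by 0.48 (4T1 1.5). Of 23 cholesterol genes Dhcr7 was called, at 0.52 (SE 0.13, adjusted p = 0.0435, 4T1 1.6). Over the members at 20 CPM or more in 4T1 cells the medians there were 1.18 for the fatty acid list and 1.58 for the cholesterol list, against 0.17 and 0.07 for the same genes in collagen.

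Interferon response genes had 22 of 25 positive in collagen, with a median of 0.52, but 2 called higher, against 3.69% of all genes. Library totals alone called 5 higher, and DESeq2 and the fit on thinned cells each called 5 higher and 1 lower. The 9 at 20 CPM or more in 4T1 cells had a median of -0.31 there and of 0.41 in collagen. Usp18, an interferon-induced protease that removes ISG15, stood at 23.5, 16.4 and 19.9 CPM on day 3 and 35.3, 24.3 and 34.2 CPM on day 5 in Mouse1, Mouse2 and Mouse3 and rose by 0.64 (SE 0.15, adjusted p = 0.0303). Tapbp, tapasin of peptide loading, rose by 0.60 (4T1 1.02), the 1 called of 14 antigen presentation genes. Of 21 genes on the cytokine and chemokine list 1 was called lower and 0 higher, against 4.8% of all genes called lower. It was Nfkbia, the inhibitor of NF-kappaB and itself no cytokine, which fell by 0.44 (4T1 0.06). With cells thinned 2 of 17 were higher and 1 lower, while limma and library totals each called 0.

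Stress lists had few calls. Of all 12276 genes 3352 had an unadjusted p under 0.05 by edgeR, and 3.69% were called higher and 4.8% lower. None of 19 genes of the unfolded protein response was called by edgeR (7 at an unadjusted p under 0.05, 5 lower by DESeq2), with a median of -0.02. None of 21 ATF4 targets was called either (7 at an unadjusted p under 0.05, 2 higher and 1 lower by DESeq2), with a median of -0.06. Hspa1b, a heat shock protein with a near-identical copy, was the 1 of 14 heat shock genes called, with a rise of 0.74 (4T1 1.26). Zfp36, an mRNA decay factor, was the 1 of 21 immediate early genes called, at 0.98 (4T1 0.68). Such single calls are near the share over all genes. Cp, ceruloplasmin, rose by 0.89 (SE 0.19, adjusted p = 0.0222, 4T1 1.45), the 1 of 10 milk and acute-phase genes called. None of 5 Iroquois homeobox genes was called by edgeR (2 at an unadjusted p under 0.05, 2 lower by DESeq2). Their most abundant members, Irx1 and Irx2, changed by 0.17 (SE 0.14) and 0.16 (SE 0.12).

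**Figure D4:**
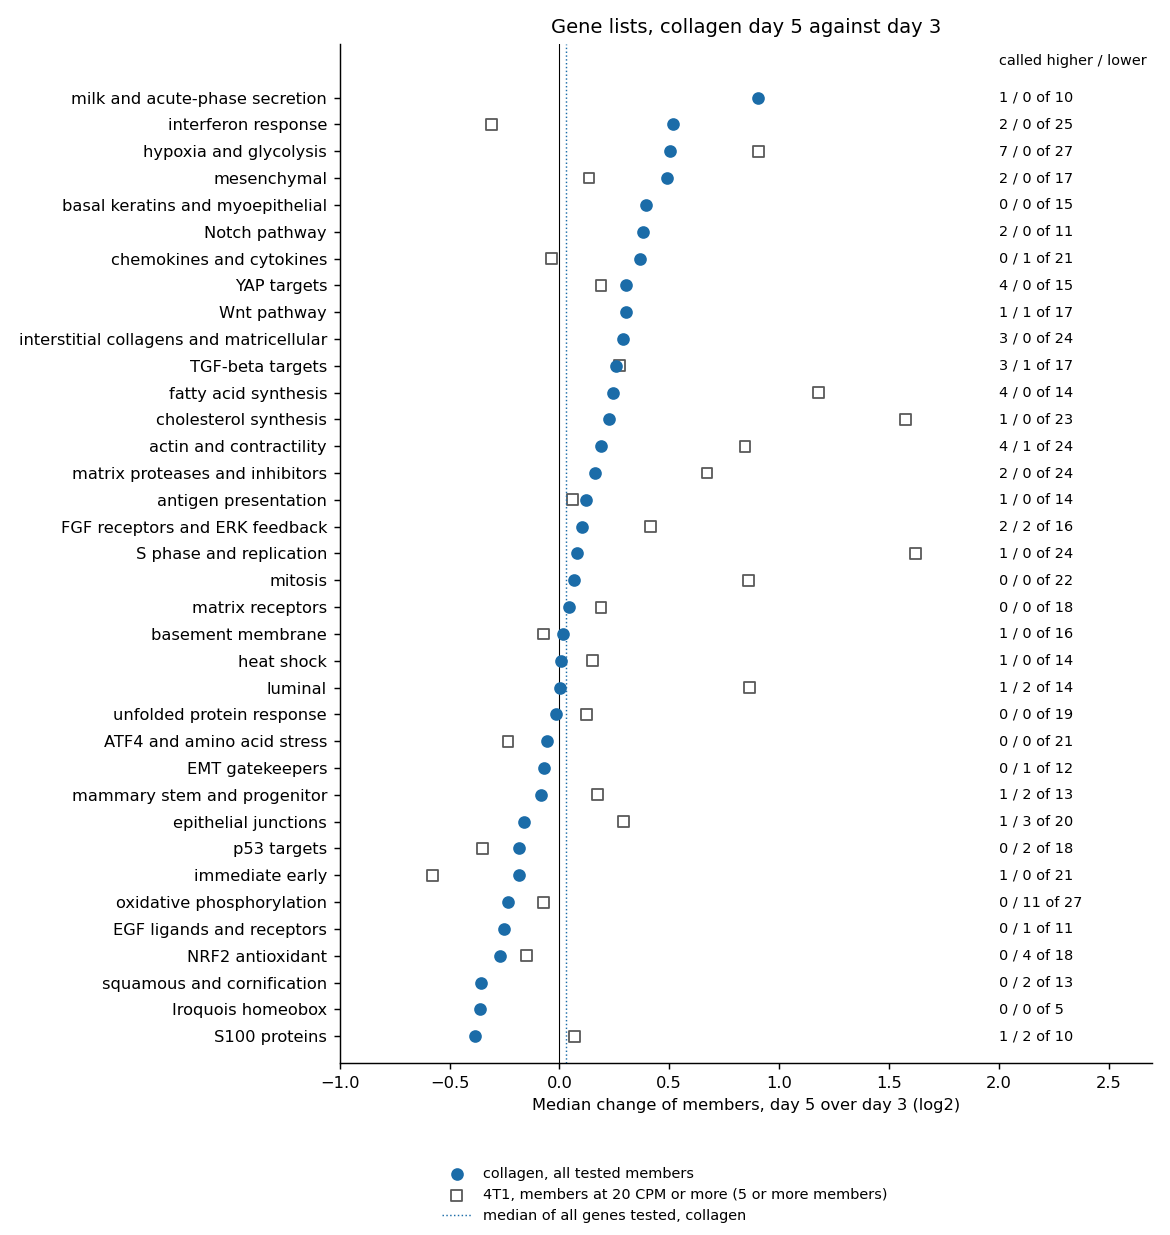
Median log2 change from day 3 to day 5 of each of 36 gene lists in collagen cells (blue points, all tested members) and, where at least 5 members had 20 CPM or more, in 4T1 cells (open squares), with the number of members called higher and lower at the right. The collagen median of the hypoxia list is 0.50 with a 4T1 median of 0.91, that of the interferon list 0.52 with -0.31, and that of oxidative phosphorylation -0.24 with -0.07.

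Markers of other cell types were checked because the sorted cells could include them. Of 11 macrophage markers 2 were called lower, against 4.8% of all genes. They were C1qa and C1qc, complement genes of macrophages, at no more than 14.9 and 4.47 CPM in any collagen sum. Summed over the list, macrophage markers had 58.0, 116 and 11.6 CPM on day 3 and 6.01, 157 and 7.91 CPM on day 5, lower on day 5 in Mouse1 and Mouse3 and higher in Mouse2. Fibroblast markers had 9.26 to 94.3 CPM on day 3 and 17.5 to 35.2 on day 5. Of 7 fibroblast, 2 T and NK, 2 neutrophil, 1 endothelial and 3 pericyte markers tested 0 were called by edgeR or DESeq2, with 1, 0, 1, 0 and 1 at an unadjusted p under 0.05 by edgeR. Without the cells that held at least 3 immune marker UMIs, C1qa and C1qc did not pass the expression filter.

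The same step was compared with that in Matrigel, where Mouse1 to Mouse3 gave 297 cells on day 3 and Mouse2 and Mouse3 enough cells on day 5 (51 and 37, against 12 in Mouse1, left out). The difference between the collagen and the Matrigel change was called for 0 of 12276 genes by edgeR (smallest adjusted p = 0.114), with 1184 at an unadjusted p under 0.05, and for 50 by DESeq2. Of the 1042 genes called in collagen, 997 changed with the same sign in Matrigel, against 8828 of all 12276. The 2 contrasts share their pools, their mice and 1 fit with the mouse as block, but no cells. Cp, for example, rose by 0.89 in collagen and by 2.29 in Matrigel (adjusted p of the difference = 0.296 by edgeR). Amotl2 changed by 0.72 and -0.36 (adjusted p = 0.336) and Irx1 by 0.17 and 1.33 (adjusted p = 0.222). By edgeR none of these 3 differences in change passed adjustment.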

How the data were processed

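Single-cell RNA of 3 pools was counted as UMIs. As deposited, the matrix gives raw counts of UMIs for every cell and gene; its 39668312 entries were all whole numbers. Cell Ranger 3.0.2, Scanpy 1.4.4 and GRCm38/mm10 stand in the submitters' processing notes, with no role given, and no source used here names the gene annotation. The deposited cell annotation gives day, mouse, matrix, total count and the mitochondrial fraction of each cell, at most 9.99%. Its time points D3 and D5 were matched to the pools by name. Gene coordinates are those of GENCODE vM21, where 20588 of the 20605 identifiers were found. Promoters come from RefSeq (GRCm38.p6), matched by symbol.

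The members and gene lists were chosen with earlier results of these data known. Sums of UMIs were made for each mouse, day and matrix with 20 or more cells, 11 in all. The 12276 genes kept by filterByExpr were fitted with edgeR 4.0.16 (R 4.3.3): TMM, 4 groups with the mouse as block, quasi-likelihood F test, 5 residual and 4.42 prior degrees of freedom, common dispersion 0.0233, Benjamini-Hochberg adjustment, threshold 0.05. CPM are per scaled total, log2 fold changes are day 5 over day 3, and SE is the fold change over the root of F. The mouse pairs the sums because the same animals gave both days. Deviations from group means correlated at 0.527, 0.57 and 0.725 within mice and at -0.545 to 0.036 between mice. No 2 replicates were copies (chi-square of 17.3 to 59.6 per degree of freedom). The number of gels behind a sum is not known here. With the mouse as block, p-values cover the spread left once the mean level of each mouse is taken out. That spread was estimated over the 11 sums of both matrices.

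For 4T1 cells, log2 changes used CPM with 5 added, over genes with at least 10 UMIs, and exact Poisson intervals cover counting error only. Intervals of shares are exact binomial. Genes named were the 15 highest and 15 lowest called fold changes at 20 CPM or more, leaving out predicted genes and those of ribosomal proteins or the mitochondrial genome, up to 4 called members of each list (2 where none was called), and state markers; genes outside this rule are named as such. The test was tried on simulated counts. No doublet caller was run. Of 22 alternative settings the closing section gives the effect. Versions were DESeq2 1.42.0, limma 3.58.1, Python 3.11.15, NumPy 2.4.6, SciPy 1.17.1, pandas 2.3.3, scikit-learn 1.9.0 and matplotlib 3.10.9. Some genes that met the naming rule are not reported here.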

Additional observations from a re-analysis of the deposited data

How the results depend on the processing

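Against 453 genes called higher and 589 lower, the fit without the replicate block called 86 and 80, the 6 collagen sums alone with the block 1577 and 1851, and DESeq2 626 and 1008. Library totals in place of TMM moved the median of all genes by 0.116 and gave 1016 and 303 (77.0% higher against 43.5%), and limma on mean CPM per cell gave 380 and 133 (74.1% higher). Thinning every cell to 5000 UMIs gave 300 and 267, and leaving out cells over 5% mitochondrial 191 and 352. Leaving out 1 mouse gave 21 to 177 higher and 13 to 302 lower, with 61.8%, 37.0% and 55.7% higher without Mouse1, Mouse2 and Mouse3. The other settings stayed within 1.5 times of both counts: no or a higher UMI minimum, no or a stricter Epcam filter, other low-count filters, all days together, DESeq2 size factors, and no 4T1-like, immune, stromal or deepest cells. The causes were not tested.

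Of the 97 called genes named and followed, 16, 53 and 24 were called without Mouse1, Mouse2 and Mouse3, and 23 without the block. Directions reversed for Krt14 (-0.23 to 0.38 over the mice left out) and Mki67 (0.02 by limma). The collagen against Matrigel difference went from 0 genes to 50 by DESeq2. With cells thinned, 4T1 genes of 2-fold numbered 484 higher and 790 lower, against 257 and 213. Among shares, the Krt14 step was -0.992 points at 2000 UMIs and -1.04 to 5.07 over the mice left out, the Krt8 step 0.536 and the Top2a step 7.19 without thinning, and the Mki67 step -0.864 for 2 or more UMIs and -1.94 to 3.31 over the mice left out. Of 22 counts of 2 or more called members of a list in 1 direction, 17 moved by over 1.5 times under at least 1 of 5 settings (DESeq2 size factors, library totals, limma, DESeq2, thinning). The 4T1 sum of day 5 rests on 19 cells.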
